A study of Rattus norvegicus with 16 samples.

Results

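The regions described here are 585 stretches of the rat transcriptome that were listed as protected by protein in both control replicates and in neither replicate exposed to N-methyl-D-aspartate (NMDA). They are called control-only sites. A site was made by joining every protein-protected site (PPS) of the 4 deposited lists that overlapped another by at least 1 bp on the plus strand of chromosomes 11, 12, 16, 17, 18, 19 or 20. That gave 19793 sites from 36392 PPS, out of 329742 PPS in the lists as a whole. The members were chosen by their presence in control replicates 2 and 3 and their absence from NMDA replicates 2 and 3. Presence in these lists, and every measure taken from the same peaks, is therefore given as a description.

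The cells were primary neurons from the cortex of Sprague–Dawley CD rat embryos at embryonic day 18. Control cultures are labelled as such with no agent named, and treated cultures received NMDA at 10 µM. Per the labels, treatment began at 15 or 21 days in vitro and lasted 4 or 24 hours, and the age and duration of these libraries are not given. No genotype or sex is named, and the labels do not say whether replicates 2 and 3 were separate cultures, so the spread between them may be technical. The extraction protocol describes nuclei isolated from tissue (3 grams), although cultured cells were collected, so the compartment sampled is uncertain. Each list joins the peaks of 4 libraries, made with ssRNase (RNase ONE, which cuts unpaired RNA) or dsRNase (RNase V1, which cuts paired RNA), with protein present or digested first. Peaks were not assigned to genes here, so neuronal markers could not be read from these files.

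RNA-binding proteins coat a transcript from its synthesis to its decay and set its splicing, transport, translation and stability. Where a protein sits on RNA crosslinked to it, an RNase cannot cut, and the shielded fragment survives as a footprint. NMDA receptors are glutamate-gated calcium channels that drive synaptic plasticity, and their overactivation injures neurons through calcium overload, which is called excitotoxicity. In a bulk lysate, fewer cells with a footprint, less of the RNA and less protein on it cannot be told apart, since the lists carry no RNA level.

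The 7 chromosome strands were used because elsewhere the lists share peaks. Outside them, control replicate 2 and NMDA replicate 3 had 15889 PPS with identical start and end on either strand, which is 22.3% of the smaller list. Control replicate 3 and NMDA replicate 3 had 11966 there (20.9%). On the 7 strands no pair of lists had more than 88 identical PPS (1.0%), and the control lists had 21 in common. Sequencing depth is unknown. The 4 lists held 8777 and 8903 PPS (control) and 9189 and 9523 PPS (NMDA) on these strands, a mean of 8840 ± 89.1 against 9356 ± 236 (SD, n = 2). An exact two-sided permutation test over the lists gave p = 0.333 (adjusted over 3 comparisons, p = 1), and 0.333 is the smallest p that 2 lists against 2 allow. NMDA replicate 2 stood apart in RNase: 21% of its PPS held an ssRNase peak, against 50.5% and 45.9% in the control lists and 53.7% in NMDA replicate 3. The group means were 48.2% ± 3.24 and 37.4% ± 23.1 (SD, n = 2, exact permutation p = 1, adjusted p = 1). Without NMDA replicate 2 that difference changed from -10.8 to 5.51 percentage points. The median PPS measured 54 and 46 bp in the control lists, against 50 and 52 bp in the NMDA lists (n = 2 each, exact permutation p = 1, adjusted p = 1).

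Control-only sites were 2.96% of all 19793 sites. They were among the rarer ways in which a pair of lists shared a site. NMDA replicates 2 and 3 alone shared 620 sites (3.13% of all sites). Pairs made of lists of different treatment shared 826 sites for replicate 2 of each group (4.17%) and 796 for replicate 3 of each group (4.02%). Control replicate 2 with NMDA replicate 3 shared 842 (4.25%), and control replicate 3 with NMDA replicate 2 shared 527 (2.66%). These 6 pairings share lists with each other and have no replicates of their own, so no test was made between them.

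**Figure D1:**
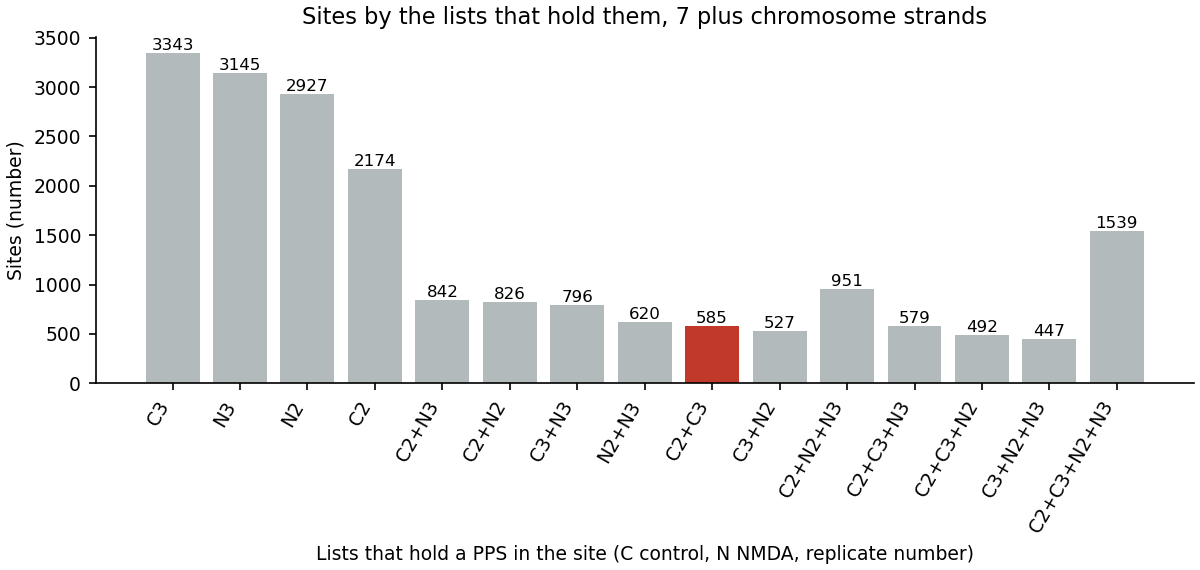
Number of sites (vertical axis) for each set of lists that holds them (horizontal axis, C for control and N for NMDA with the replicate number). The 585 control-only sites are in red, and 4 of the other 5 pairs of lists hold more sites, with 527 for C3+N2.

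Seen from each control list, the other control list was not the most frequent partner. Of the 2253 sites that control replicate 2 shared with exactly 1 other list, 26.0% were shared with control replicate 3, 36.7% with NMDA replicate 2 and 37.4% with NMDA replicate 3. Of the 1908 such sites of control replicate 3, 30.7% were shared with control replicate 2, 41.7% with NMDA replicate 3 and 27.6% with NMDA replicate 2. The control-only sites made up 7.32% of all sites of control replicate 2 and 7.04% of those of control replicate 3.

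Most footprints that both control lists held were also found after NMDA. The control lists shared 3195 sites. Of these, 1539 were in both NMDA lists, 492 in NMDA replicate 2 alone, 579 in NMDA replicate 3 alone and 585 in neither. The control-only share was thus 18.3% (exact 95% binomial interval 17 to 19.7, which covers counting error only). The mirror-image share, of the 3557 sites in both NMDA lists that no control list held, was 17.4% (16.2 to 18.7). In the remaining pairings the share that no other list held ran from 17.5% for control replicate 3 with NMDA replicate 2 to 23.7% for replicate 3 of each group. The control value lay inside that range.

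Which treatment had more sites of its own depended on how the lists were balanced. As deposited there were 585 control-only and 620 NMDA-only sites. With every list thinned at random to the 8777 PPS of the smallest, there were 658 and 550. Among PPS holding an ssRNase peak there were 345 control-only and 254 NMDA-only sites, and among PPS holding a dsRNase peak there were 318 and 579. With equal numbers of ssRNase, dsRNase and joint PPS drawn from each list, 5993 per list in all, the numbers were 536 and 480. The low ssRNase share of NMDA replicate 2 moved with the RNase-specific counts, and its part in them was not tested.

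Control-only sites were similar in length to the sites of the other pairings. The joined site measured 8 to 201 bp with a median of 65 bp, and its quartiles were 52 and 83 bp. Sites of the other 5 pairings had medians of 62 to 69 bp. Sites in a single list had a median of 45 bp, those in 3 lists 89 bp and those in all 4 lists 130 bp, where joining more PPS itself lengthens a site. Within the members, PPS had a median of 52 bp in control replicate 2 and 47 bp in control replicate 3, against 54 and 46 bp over all PPS of those lists. Only 5 of the 585 members (0.855%) reached 150 bp, compared with 9 of the 620 NMDA-only sites (1.45%) and up to 23 of 842 (2.73%) for control replicate 2 with NMDA replicate 3.

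Long sites shared by the control lists were rarely control-only, in part by construction. Control PPS joined only through an NMDA PPS make a longer site that cannot be control-only. A longer span also leaves more room for an NMDA PPS to overlap it. The size of these parts was not tested. Measured over the control PPS alone, 124 of 343 shared sites under 50 bp were control-only (36.2%, exact 95% interval 31.1 to 41.5). The share was 29.8% from 50 to under 75 bp, 19.9% from 75 to under 100 bp and 7.97% from 100 to under 150 bp. At 150 bp or more it was 5 of 516 (0.969%, 0.315 to 2.25). The NMDA lists gave the same kind of gradient among the sites they shared, from 37.4% under 50 bp to 1.44% at 150 bp or more. The other 4 pairings also ran downward from the shortest to the longest class, from 36.6% to 50.3% in the shortest class to 1.74% to 3.29% in the longest.

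**Figure D2:**
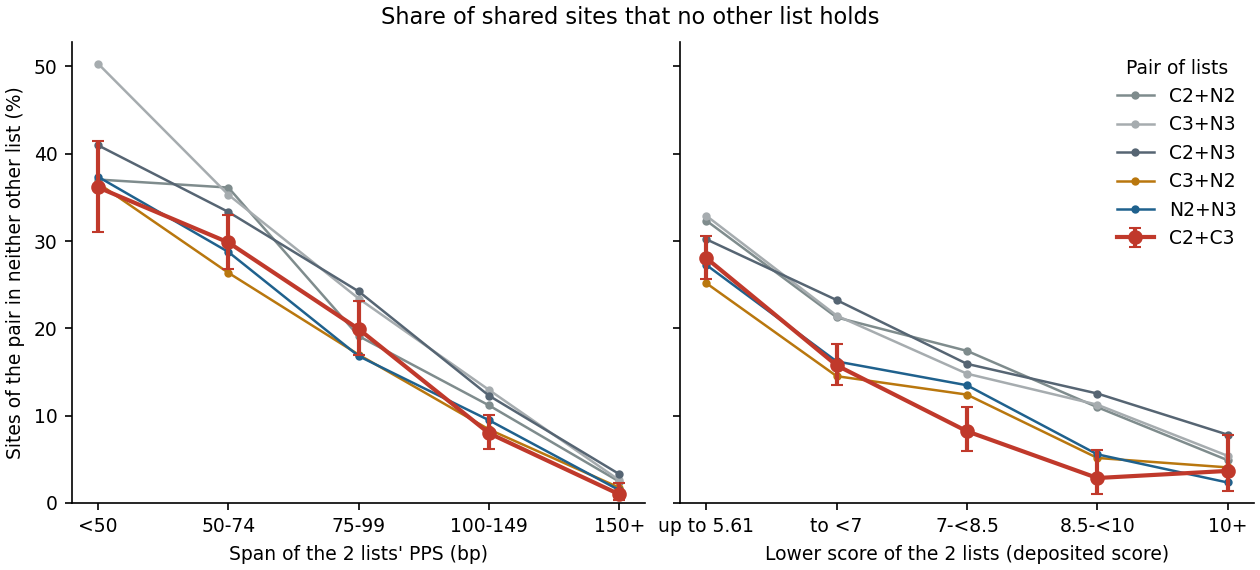
Percentage of sites held by both lists of a pair that neither other list holds (vertical axis), by the span in bp of the pair's own PPS (left) and by the lower deposited score of the pair (right). Red points are the control lists with exact 95% binomial intervals and the thinner lines are the other 5 pairings. The share falls with length and, up to a score of 10, with score in the control lists. PPS of a pair that were joined through a PPS of another list add to span and score by construction.

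Scores were low. The deposited score has no stated scale and many ties: 5.4 and 5.61 together with 6.82 were the most frequent values, at 21.8%, 12.8% and 12.6% of PPS. Each site was given the lower of its 2 lists' highest scores. The median lower score of control-only sites was 5.4, which is the lowest score in control replicate 3, and 380 of 585 (65.0%) had a lower score of 5.61 or less. Among the other pairings that share was 55.7% to 68.1%. A lower score of at least 10 was found in 6 control-only sites (1.03%) and in 1.51% to 4.87% of the sites of the other pairings. The lists differed in score range, with highest scores of 44.6 and 25.81 in control and 58.96 and 86.02 in NMDA. Whether the lists share a scale is not stated, so these shares are not read as a trait of the members. In control replicate 2, 32.8% of the members' PPS scored above their list's median, against 43.4% of all its PPS. In control replicate 3 the values were 29.7% and 32.0%.

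The control-only share of the sites shared by both controls was 28.0% at a lower score of 5.61 or less, 15.8% from there to under 7 and 8.20% from 7 to under 8.5. It was 2.84% from 8.5 to under 10 (6 of 211) and 3.66% at 10 or more (6 of 164). The exact interval in the last class was 1.35 to 7.79. Where both NMDA lists also held the site, the median lower control score was 6.82 and the median control span was 112 bp. With NMDA replicate 2 alone these were 5.965 and 77 bp, and with NMDA replicate 3 alone 5.86 and 82 bp. Control-only sites, at 5.4 and 65 bp, had the lowest median score and span of the 4 classes. Control PPS joined through an NMDA PPS add to the score and span of the other 3 classes by construction.

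Spearman's rho between a member's scores in the 2 control lists was 0.0430 over the 585 members, whose libraries are shared by all of them, and 0.0224 to 0.237 in the other 5 pairings. Over the 1539 sites in all lists, the control scores had a rho of 0.0970. The score was higher in control replicate 2 at 256 members, higher in control replicate 3 at 217 and equal at 112. The lengths of the 2 PPS had a rho of 0.240.

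The 5 members with the highest lower scores were picked by that score, and others scored higher in a single list. At chr12:25235524-25235589 (66 bp) both control lists scored 11.7 with ssRNase peaks, and an NMDA replicate 2 PPS began 16 bp away. The site at chr12:49505349-49505416 scored 13.5 and 11.7 in control replicates 2 and 3, and NMDA replicate 2 had a PPS 34 bp from it. Both of these footprints therefore had an NMDA footprint beside them that failed to touch. The ssRNase site chr16:6055395-6055447 scored 11.7 and 13.5, with no NMDA PPS within 1043 bp. The ssRNase site chr19:49996708-49996783 scored 11.7 and 12.23, and its PPS of 74 and 76 bp overlapped by 74 bp, with the nearest NMDA PPS at 587 bp. The last, chr12:40484930-40484976, scored 11.03 and 11.7 and lay 3031 bp from any NMDA PPS. These last 3 lay farther from NMDA PPS than the first 2.

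The longest members were protected over their whole length in neither list alone, and their PPS overlapped only in part. At chr12:38893584-38893784 (201 bp) the control replicate 2 PPS spanned 185 bp and scored 5.57, the control replicate 3 PPS spanned 74 bp and scored 13.5, and 58 bp were common to both. The site chr16:6059795-6059977 (183 bp) held 3 PPS with 54 bp in common and scored 6.82 in both lists. At chr19:56598546-56598705 (160 bp) PPS of 130 and 67 bp shared 37 bp. The 158 bp site chr12:40952980-40953137 joined a 37 bp dsRNase PPS of control replicate 2 to a 151 bp ssRNase PPS of control replicate 3. The 152 bp site chr12:19030429-19030580 held ssRNase PPS, scored 5.4 in both lists and lay 36 bp from a PPS of NMDA replicate 3. In all 5 the common part was under 60 bp.

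Agreement in position between the control lists was moderate. The overlap of the control PPS had a median of 38 bp, or 61.9% of the site, and in the other pairings the median share was 56.7% to 65.3%. Overlap covered at least 50% of the site in 383 members and at least 80% in 127. In 308 members (52.6%) the PPS of 1 control list lay wholly inside that of the other. Each list contributed a single PPS in 572 members, and 13 members joined 3 PPS. Start and end were identical in 3 members: chr11:80760357-80760386, chr16:20346233-20346302 and chr20:49352977-49353024. The RNase differed between the lists in each of these 3, with ssRNase against dsRNase in the first and last, and both RNases against ssRNase in the second.

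At the edge of the rule, 15 members rested on a control overlap of 1 to 4 bp, and 11 further pairs of control PPS lay 0 to 4 bp apart with no NMDA PPS and so were not joined. An NMDA PPS lay 0 to 3 bp from 14 members. Conversely, 6 sites shared by the control lists were left out although no more than 5 bp of a control PPS lay under an NMDA PPS. The nearest of the members were chr12:13861055-13861121, chr16:11046563-11046646 and chr20:4420417-4420467, each abutting an NMDA PPS with a gap of 0 bp. They are the first 3 in genome order of 4 members at that distance.

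Both kinds of RNase were well represented. ssRNase cuts unpaired RNA, so a footprint seen with it marks protected RNA that was accessible there once protein was removed, and dsRNase does the same for paired RNA. In control replicate 2, 43.1% of the 591 PPS in members were ssRNase only, 49.1% dsRNase only and 7.78% joined peaks of both, against 37.0%, 49.5% and 13.5% over that whole list. In control replicate 3, 45.3% of 592 were ssRNase only, 50.0% dsRNase only and 4.73% both, against 39.1%, 54.1% and 6.78%. PPS supported by both RNases were thus the scarcer kind among the members in each list.

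Across the 2 control lists, 174 members (29.7%, exact 95% interval 26.1 to 33.6) were ssRNase in both and 201 (34.4%, 30.5 to 38.4) were dsRNase in both. In 141 (24.1%) the lists disagreed, nearly evenly, with 71 ssRNase in control replicate 2 and 70 ssRNase in control replicate 3. The remaining 69 (11.8%) held both RNases in at least 1 list. The same RNase in both lists was found in 64.1% of members, and in 56.2% to 71.9% of sites of the other pairings.

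The ssRNase share of the pairings followed whether NMDA replicate 2 was among the lists. It was 29.7% in the control-only sites, 33.7% for control replicate 2 with NMDA replicate 3 and 23.0% for control replicate 3 with NMDA replicate 3. In the 3 pairings that include NMDA replicate 2 it was 12.3%, 7.40% and 5.57%. The 174 ssRNase members therefore stand beside 76 NMDA-only sites with ssRNase in both lists, while the list that can supply the latter had few ssRNase PPS. The part of this gap in the difference was not tested.

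**Figure D3:**
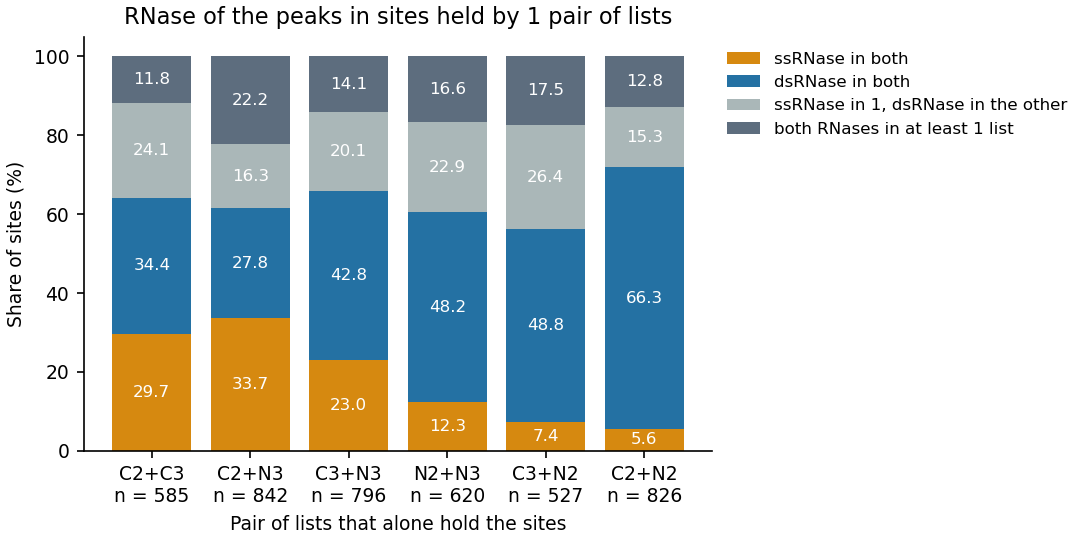
Share of sites (vertical axis, %) by the RNase of their peaks for each pair of lists that alone holds them (horizontal axis, C control, N NMDA, with the number of sites). Pairs without NMDA replicate 2 (left 3 bars) have 23.0% to 33.7% sites with ssRNase in both lists and pairs with it (right 3 bars) have 5.57% to 12.3%.

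The RNase classes of the sites shared by the control lists had similar control-only shares, except where both RNases were involved. Control-only sites were 174 of 659 (26.4%) of those with ssRNase in both lists, 201 of 797 (25.2%) with dsRNase in both and 141 of 614 (23.0%) where the lists differed. Where both RNases had marked the site in at least 1 list, 69 of 1125 were control-only (6.13%, exact 95% interval 4.80 to 7.70). The other 5 pairings had 6.79% to 11.1% in that class, which gains sites by construction as more PPS are joined. Shares for ssRNase and dsRNase were also close to each other for control replicate 2 with NMDA replicate 3, at 31.9% and 32.2%. In each remaining pairing the ssRNase share was clearly the lower one. For example, the shares were 21.7% and 33.3% for the NMDA lists, and 24.1% and 47.8% for replicate 3 of each group. These differences between pairings were not tested.

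Members of the RNase classes differed in length. Those with ssRNase in both lists had a median of 77 bp, those with dsRNase in both 55 bp and those that differed 62 bp. Length by RNase is not given here for the whole lists or the other pairings, so this is not read as a trait of the members. The median lower score was 5.4 in each of these classes and 6.21 where both RNases were involved. The nearest NMDA PPS lay at a median of 352 bp for ssRNase, 411 bp for dsRNase and 747 bp for members with both RNases.

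NMDA footprints were close to most control-only sites. The gap to the nearest PPS of either NMDA list on the same strand ran from 0 to 681426 bp, with a median of 441 bp. It was at most 50 bp for 111 members (19%), at most 1000 bp for 379 (64.8%) and at most 10000 bp for 527 (90.1%). Taken apart, the median gap was 863 bp to NMDA replicate 2 and 838 bp to NMDA replicate 3. The nearest PPS belonged to NMDA replicate 2 for 283 members and to NMDA replicate 3 for 302, and lay at lower coordinates for 294 and at higher ones for 291. No NMDA list or side was favoured by more than a few percentage points.

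Distances of this size were also found for the other pairings. NMDA-only sites lay at a median of 356.5 bp from a control PPS, and the other 4 pairings had medians of 295.5 to 588.5 bp to the lists that lacked them. Within 1000 bp the shares were 66.1% for NMDA-only sites and 59.0% to 72.7% for the rest. The 64.8% of control-only sites lay within that range.

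**Figure D4:**
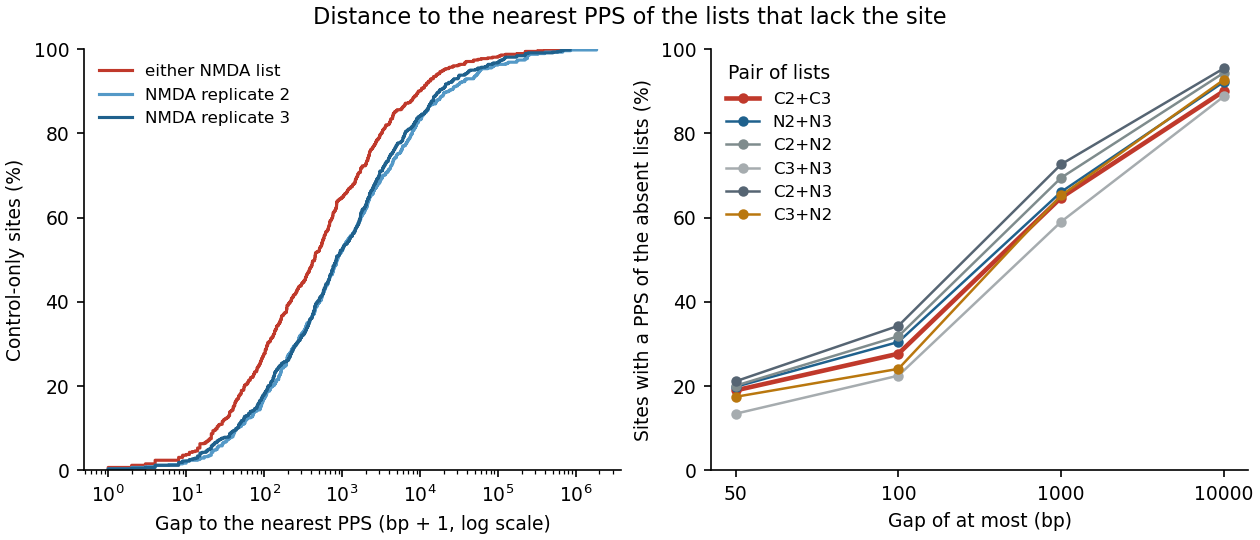
Left, cumulative share of the 585 control-only sites (vertical axis, %) by the gap in bp plus 1 to the nearest NMDA PPS, on a log axis. Right, share of sites of each pair of lists with a PPS of the absent lists within 50, 100, 1000 or 10000 bp, where the control lists (red) reach 64.8% at 1000 bp and 90.1% at 10000 bp.

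For 312 members (53.3%) the nearest NMDA PPS was in a site that a control list held too. Of all NMDA replicate 2 sites, 35.1% were in that list alone and 7.44% were shared only with NMDA replicate 3. For NMDA replicate 3 these shares were 35.3% and 6.95%. The rest of the sites of each list held a control PPS, so the 53.3% is not read as a trait of the members. Among the 111 members with an NMDA PPS within 50 bp, this was so for 63 (56.8%). Over all 111 of these members the close neighbour was dsRNase in 57 (51.4%), ssRNase in 41 (36.9%) and of both RNases in 13 (11.7%). For all 585 members, at any distance, the nearest NMDA PPS was dsRNase in 61.7%, ssRNase in 31.3% and of both in 7.01%. Of 31 members with ssRNase in both lists and an NMDA PPS within 50 bp, 17 had an ssRNase neighbour, 10 a dsRNase neighbour and 4 a neighbour with both. Of 44 with dsRNase in both lists, 27 had a dsRNase neighbour, 14 an ssRNase neighbour and 3 a neighbour with both. In the whole lists, 79.0% of NMDA replicate 2 PPS and 46.3% of NMDA replicate 3 PPS were dsRNase only. The ssRNase-only shares were 11.4% and 37.1%. Whether neighbours matched the RNase of the members beyond these shares was not tested.

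A minority stood far from any NMDA footprint. In 58 members (9.91%) the nearest NMDA PPS was more than 10000 bp away, against 48 NMDA-only sites (7.74%) for control PPS. In the other 4 pairings the share was 4.51% to 11.2%, highest for replicate 3 of each group, so the members lay within that range. The most distant was chr19:35540475-35540497, a 23 bp dsRNase site that scored 9.98 in control replicate 2 and 6.57 in control replicate 3, at 681426 bp. The next, chr19:20206392-20206462, was a 71 bp dsRNase site with scores of 6.82 and 19.37, at 401082 bp. It was followed by the ssRNase site chr19:20284955-20285008, which scored 6.81 and 5.62 and lay 322536 bp from an NMDA PPS and 78492 bp from the second. The dsRNase site chr19:49499362-49499418 scored 5.4 in both lists and lay at 224551 bp. The 26 bp site chr20:48563655-48563680 scored 5.4 with dsRNase and 13.5 with ssRNase and lay at 222808 bp, with another member 1667 bp away. Of these 5, 4 were on chromosome 19.

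The surroundings of the members were occupied alike in all 4 lists. Leaving out the site itself, the 1000 bp on each side held a mean of 1.23 PPS of control replicate 2, 1.10 of control replicate 3, 1.14 of NMDA replicate 2 and 1.19 of NMDA replicate 3. At least 1 such PPS was found at 307, 287, 303 and 305 of the 585 members. Within 10000 bp the means were 5.46 and 4.86 for control and 5.26 and 5.49 for NMDA, so the groups overlapped at either distance. NMDA-only sites had somewhat fuller surroundings, with 1.48 and 1.39 control PPS and 1.48 and 1.60 NMDA PPS within 1000 bp.

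**Figure D5:**
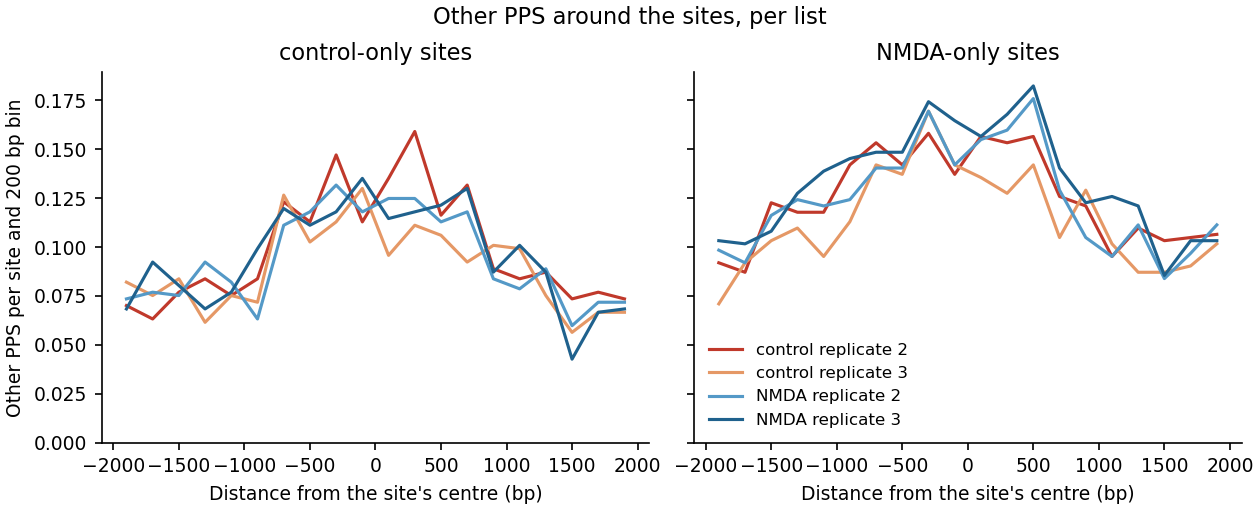
Mean number of other PPS per site in bins of 200 bp (vertical axis) by distance in bp from the centre of the site (horizontal axis), for control-only sites (left) and NMDA-only sites (right), with a line for each list. The 4 lines run together on both sides of the control-only sites, where the lists have 1.10 to 1.23 PPS per site within 1000 bp.

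The members were spread thinly with a few dense groups. Their nearest fellow lay at a median of 39503 bp, against 21725 bp for NMDA-only sites and 11573 to 41524 bp for the other pairings, which differ in number. Another member was within 1000 bp of 82 members (14.0%) and within 10000 bp of 200 (34.2%). Of the 1748 windows of 100 kb that held any site, 399 held a member: 276 held 1, 84 held 2 and 39 held 3 or more. The 174 windows richest in sites held 42.7% of all sites, 36.8% of the members and 45.2% of the NMDA-only sites. In 152 windows a member and an NMDA-only site occurred together, which is 38.1% of the windows with members and 39.0% of those with NMDA-only sites. For comparison, 399 of all 1748 windows held a member and 390 held an NMDA-only site. Both kinds were more frequent in windows rich in sites, and their occurrence together was not tested. Of the 399 windows with a member, 12 (3.01%) had no NMDA PPS at all.

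The run of neighbouring members with the most sites was on chromosome 18. Between 25963085 and 25975775, 7 control-only sites followed each other with gaps of under 10000 bp. They scored 5.4 to 9.55 in control replicate 2 and 5.4 to 11.7 in control replicate 3, and 5 of the 7 were ssRNase in both lists. NMDA PPS lay 43 to 2047 bp from them. The 100 kb window from 25900001 to 26000000 held 26 and 14 control PPS and 12 and 10 NMDA PPS, and 7 of its 34 sites were control-only (20.6%). All 4 lists thus covered this stretch. The control counts include the PPS of the 7 members, which by the rule add to both control lists and to no NMDA list. The counts are therefore not read as a difference between the groups. The next group, from 27036494 to 27058744 on the same chromosome, held 5 members, and runs of 4 were found at 8 places, among them chr12:39151679-39160786 and chr16:6055395-6060762.

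The window chr17:75300001-75400000 also held 7 members, among 261 sites (2.68%), and chr17:75500001-75600000 held 6 among 184 (3.26%). These shares lay near the 2.96% over all sites, so the windows were rich in sites as a whole. PPS of the first numbered 104 and 79 in control and 126 and 152 in NMDA, and of the second 54 and 40 in control and 85 in each NMDA list, so NMDA PPS were the more numerous. The 13 members of these windows had dsRNase peaks in both lists and lay 3 to 586 bp from an NMDA PPS. From 75300001 to 75700000 as a whole there were 21 members, all of them dsRNase in both lists, and 34 NMDA-only sites among 808 sites (2.60% and 4.21%). The RNase of the other sites there is not given here, so the uniform dsRNase is not read as a trait of the members.

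Some of these members were copies of each other. The sites chr17:75322184-75322233, chr17:75328122-75328172, chr17:75328709-75328755 and chr17:75332470-75332525 each had a counterpart exactly 198561 bp further on. Each counterpart had the same length, the same scores in both control lists and the same gap to NMDA, from 3 to 586 bp. The first pair scored 8.2 and 8.35 at both places and the third scored 9.98 and 8.35. Repeats of length and score at that offset were found in every list: 13 PPS of 317 in control replicate 2, 11 of 270 in control replicate 3, 24 of 359 in NMDA replicate 2 and 23 of 442 in NMDA replicate 3.

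In all, 11 pairs of members (22 sites) had the same footprint in both lists. Besides the 4 on chromosome 17, they included chr18:35673178-35673240 with chr18:35878061-35878123 and chr18:35675754-35675786 with chr18:35880432-35880464. A pair also joined different chromosomes, chr12:10089605-10089733 and chr16:70084139-70084267, each 129 bp long, with scores of 5.57 and 5.4 and an NMDA PPS 54 bp away. Such pairs may not be separate observations, and whether the reads behind them were assigned to more than 1 place was not tested. Counted once, the 585 members were 574 distinct footprints.

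Chromosomes contributed unequally. Chromosome 12 held 105 members, or 3.83% of its 2744 sites, and chromosome 17 held 81, or 2.28% of its 3553 sites, the highest and lowest of the 7 shares. For NMDA-only sites the order was turned, with 2.55% on chromosome 12 and 3.8% on chromosome 17. The PPS of the lists leaned the same way, but they include the PPS of the members and of the NMDA-only sites. They numbered 1337 and 1433 in control against 1297 and 1230 in NMDA on chromosome 12. On chromosome 17 they numbered 1492 and 1469 in control against 1641 and 1737 in NMDA. The control-only share of sites that both control lists held was 19.8% on chromosome 12 and 16.1% on chromosome 17, with chromosome 16 the highest at 22.0% and chromosome 20 the lowest at 15.9%. Median member length varied little, from 61 bp on chromosome 11 to 67 bp on chromosome 12.

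Members and NMDA-only sites alike seldom had a footprint of the other group on the opposite strand. A minus-strand NMDA PPS overlapped 5 of the 585 members (0.855%), and 580 were still absent from NMDA when strand was ignored. A minus-strand control PPS overlapped 7 of the 620 NMDA-only sites (1.13%). Part of the minus-strand peaks is shared between lists, as given above for the rest of the genome.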

How the data were processed

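PIP-seq libraries (16) of control and NMDA-treated rat cortical neurons were deposited as 4 lists of PPS, each from the 4 libraries of 1 replicate. Per the submitters' processing notes, cutadapt 1.2.1, TopHat2 2.0.10 and rn6 were used, with no role or order given. Per the labels, the names of the lists include CSAR and an FDR of 5%. The deposited score, of unstated scale, comes with each peak name. The highest score of a PPS was used, only to describe or filter. No read numbers accompany PPS.

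Groups and replicates came from titles and descriptions. Coordinates are 1-based. No rn6 sequence or annotation was used here. Members, strands and settings were chosen with earlier results of these data known. Over the 4 lists, 3 measures were compared by exact permutation tests with Benjamini-Hochberg adjustment. Intervals are exact binomial and treat sites as independent. Named sites were the 5 with the highest lower score, the 5 longest, the 5 farthest from and 3 nearest to NMDA PPS, the 3 windows with most members, and members with identical ends. Repeated footprints and groups of neighbours were named after their values were seen. Alternatives were a longer overlap, joining over gaps, ignoring strand, minimum score or length, thinning, a single RNase, equal numbers per RNase, repeated footprints counted once, leaving out each list and a replicate block. The site code found 100% of the patterns of 2000 simulated sites. Python 3.11.15, numpy 2.4.6, pandas 2.3.3, scipy 1.17.1 and matplotlib 3.10.9 were used.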

Additional observations from a re-analysis of the deposited data

Results flagged for a closer look

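The minus strand lies outside the comparisons. There, NMDA replicate 2 had a PPS over 3 of the 585 control-only sites and NMDA replicate 3 over 3, against 2 for control replicate 2 and 0 for control replicate 3. Over the 620 NMDA-only sites, NMDA replicates 2 and 3 had 4 and 10, and control replicates 2 and 3 had 7 and 0. The minus-strand lists of these chromosomes held 5427 and 13653 PPS for NMDA and 9721 and 5810 for control. Groups of 2 lists allow no test for an outlying list.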

How the results depend on the processing

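The number of control-only sites was 338 for PPS at or above their list's median score, 345 for PPS holding an ssRNase peak and 318 for PPS holding a dsRNase peak. It lay within 1.5 times of 585 under the other settings with all 4 lists. Of the 585, 550 were found again with an overlap of at least 10 bp, 456 with PPS up to 50 bp apart joined and 577 after thinning. Fewer were found again above the median score (159), with ssRNase peaks (206), with dsRNase peaks (243) and with equal numbers per RNase (268). With equal numbers per RNase the count was 536, so a count near 585 did not mean the same sites. The median length was 72 bp with PPS up to 50 bp apart joined, 77 bp above the median score and 83 bp for ssRNase peaks. The median lower score was 6.82 above the median score, by construction. The median gap to NMDA was 411 bp with an overlap of at least 10 bp, 753 bp with PPS up to 50 bp apart joined, 766.5 bp above the median score, 682 bp for ssRNase and 588 bp for dsRNase peaks, and 477.5 bp with equal numbers of PPS per RNase, where fewer PPS remain. The share with a single RNase in both lists was 70.1% for ssRNase and 74.2% for dsRNase peaks. The share within 10 kb of another member was 27.8% above the median score, 26.1% for dsRNase peaks and 30.04% with equal numbers per RNase.

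Leaving out each list, which loosens the rule, gave 1082 to 4028 sites, with 1082 without NMDA replicate 2, 1204 without NMDA replicate 3, 2834 without control replicate 3 and 4028 without control replicate 2. Median lengths were 43 to 69.5 bp, gaps 477 to 761 bp and shares within 10 kb 49.5% to 72.3%. The share with a single RNase in both control lists, which needs both, was 58.2% when NMDA replicate 2 was left out and 61.5% when NMDA replicate 3 was. Over whole lists, the NMDA minus control difference was 349 to 683 PPS, -27.2 to 5.51 percentage points of ssRNase and -3 to 5 bp of median length, being 0 without NMDA replicate 3. With the replicate number as a block (replicate block) the difference was 516 PPS (exact p = 0.5). Same-numbered lists deviated together only weakly, with a correlation of 0.0655 over 1748 windows. With 2 lists per group this cannot exclude that the numbers pair the lists, and the tests without a block assumed no pairing. The equal draw per RNase and the single count of repeated footprints were chosen after seeing the data. With n = 2 and unknown depth, whether a PPS missing from a list lay just under its threshold was not tested.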
